A study of Mus musculus with 24 samples.

Results

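The mouse genome holds a large family of genes for collagen chains, and 44 of the 26995 gene symbols in the deposited read tables are collagens. They were taken by name alone, as every symbol made of Col, a type number, the letter a and a chain number. Where a symbol had several 3′UTR entries, the gene was represented by the 1 that collected most reads on average across the 24 libraries, so that 44 of 231 collagen entries were used, out of 91830 entries in all. The cells were 3T3-L1, 1 established line of mouse embryonic fibroblasts that act as pre-adipocytes and turn into adipocytes after hormonal induction. Cultures received DMSO as the control or 0.5 μM ML-792, which blocks the SUMO-activating enzyme and so the attachment of SUMO to proteins. They were collected at day −2, before induction, and at days 1, 3 and 7 after induction with dexamethasone, 3-isobutyl-1-methylxanthine and insulin, with replicates A, B and C for each of the 8 conditions. At day 3 the induction mix gave way to a maintenance medium with insulin. Every culture, controls included, received 100 μM 4-thiouridine for 45 min before harvest.

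Collagens are secreted proteins built of chains wound into a triple helix. Fibrillar collagens (types I, II, III, V, XI, XXIV and XXVII) form the tensile fibres of connective tissue, and types I and III are the main products of fibroblasts. Type IV chains form the sheet-like network of basement membranes, which wrap each mature adipocyte, and type VI chains form beaded filaments in the matrix around fat cells. FACIT collagens sit on the surface of fibrils, multiplexins (types XV and XVIII) belong to basement membrane zones, types VIII and X form short-chain networks, type VII forms anchoring fibrils, and types XIII, XVII, XXIII and XXV span the plasma membrane. When pre-adipocytes become fat cells, a fibrous fibroblast matrix is known to give way to one rich in basement membrane.

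QuantSeq reads the 3′ end of polyadenylated RNA, so a count follows the amount of RNA and not the length of the transcript. Labelled reads are those with at least 1 T to C conversion, which marks RNA made during the pulse of 4-thiouridine. Library depth ran from 13554718 to 27013352 total reads, with a median of 17428698, and from 115709 to 820046 labelled reads, with a median of 185851. Below, a normalized count is the count scaled by the library size and TMM factor of the total reads, at the mean library size. A collagen was called over the DMSO time course at an adjusted p under 0.01 and between ML-792 and DMSO at an adjusted p under 0.1, by edgeR's quasi-likelihood test with Benjamini-Hochberg adjustment over all entries tested. Values after ± are standard errors for log2 fold changes and standard deviations for means, with n = 3. No library without 4-thiouridine was used here, so the background of T to C conversions was not measured. In a culture, fewer cells of a type and less RNA per cell cannot be told apart.

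The cells carried the markers of their label. Summed over 6 adipocyte markers, the DMSO libraries held 72.1 to 115 CPM (reads scaled by library size) at day −2 and 16819 to 19220 at day 7. Over 6 pre-adipocyte and fibroblast markers that are no collagens, the sum went from 9021 to 10421 at day −2 to 1462 to 1963 at day 7. With ML-792 at day 7, the sums were 30142 to 31088 and 1866 to 2482. In the first list only Lipe had a lower mean with ML-792 than in DMSO at day 7 (25865 against 27547 normalized counts). In the second list only Dlk1 did (1492 against 3098 normalized counts). Ptprc (leukocytes), Acan (cartilage) and Epcam (epithelia) had 3 counts or fewer in every library. The 3 endothelial markers together stayed under 1.08 CPM, and the leukocyte and macrophage list ranged from 1.35 to 8.35. The smooth muscle list went from 1681 to 3392 CPM at day −2 to 67.9 to 82.9 at day 7, the osteoblast list from 47.6 to 56.6 to 5.71 to 6.58, and the chondrocyte list, of which Acan was at the floor, from 319 to 583 to 67.8 to 179. Each of these 3 sums followed mostly 1 gene, Acta2, Runx2 and Sox9, while the mean normalized counts of Des went from 25.2 to 359, those of Myh11 from 6.89 to 164 and those of Comp from 4.49 to 11.2. The epithelial list had at most 1.93 CPM. The part of these shifts in the collagen results was not tested.

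Of the 44 collagens, 27 passed the filter on low counts in total reads and 18 in labelled reads. The other 17 were at or near the floor in all 24 libraries, and their highest single counts were 9 for Col14a1 and Col19a1, 8 for Col10a1 and Col6a4, 7 for Col2a1 and Col4a6, 6 for Col4a3, 5 for Col9a2 and 4 for Col4a4, Col6a5 and Col26a1. Col13a1 reached 3, Col9a1, Col25a1 and Col22a1 reached 2, Col24a1 reached 1, and no read fell on Col6a6. The cartilage collagens Col2a1, Col9a1, Col9a2 and Col10a1 are in this group, but Col9a3, Col11a1, Col11a2 and Col27a1, also known from cartilage, passed the filter. Of the type IV chains of specialised basement membranes, Col4a3, Col4a4 and Col4a6 are in it, while Col4a5 passed. The set is spread over 15 chromosomes of the mm10 build. Col1a2 was counted on chr6:4540663-4541543, Col1a1 on chr11:94951620-94953042, Col3a1 on chr1:45348748-45349706 and Col4a2 on chr8:11448317-11449287, all 3′UTRs on the plus strand. The entry used for Col4a1, chr8:11198423-11199882 on the minus strand, belongs to a non-coding transcript model of the gene, and 55 entries carry the symbol. The length and the number of T bases of all 44 entries equal those of the GRCm38.p6 sequence at the same positions.

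Collagen 3′UTRs are known targets of the miR-29 family, which represses many matrix genes, and many of the counted regions match its seed. The 3 mature miR-29 sequences are shown because they share a seed (capitals, bases 2 to 8) that pairs with the letters TGGTGCT in a transcript. They come from RefSeq, and no other mature mouse miRNA in that table has this seed.
mmu-miR-29a-3p: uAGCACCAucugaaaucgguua
mmu-miR-29b-3p: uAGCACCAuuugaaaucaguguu
mmu-miR-29c-3p: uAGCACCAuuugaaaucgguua
On the transcribed strand, 16 of the 27 tested collagen regions (59.3%) held at least 1 match to TGGTGCT, against 1951 of 13331 regions (14.6%) over all genes tested. The collagen regions had 26 matches, or 0.749 per kb, against 0.114 per kb over all genes, at median lengths of 971 and 1050 bases. In the last 500 bases alone, 3 of 23 collagen regions long enough (13.0%) and 475 of 9573 regions of all genes (4.96%) held a match. The sites below stand for collagens whose RNA moved in opposite directions, with the match in capitals in the GRCm38.p6 sequence.
Col1a1 (chr11:94952527-94952556, plus strand): gaaggaatttcTGGTGCTatagaagctgag
Col3a1 (chr1:45348971-45349000, plus strand): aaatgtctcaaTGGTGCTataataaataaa
Col5a2 (chr1:45374954-45374983, minus strand): tcttttaatgaTGGTGCTaaaattatttct
Col4a1 (chr8:11199750-11199779, minus strand): ccgtcacaacaTGGTGCTactcccccccct
Col4a2 (chr8:11448348-11448377, plus strand): gaaggccacgtTGGTGCTtatccttctgta
Col4a2 (chr8:11448519-11448548, plus strand): cacacccagctTGGTGCTtactcttaactt
Col15a1 (chr4:47312489-47312518, plus strand): aatccacatatTGGTGCTagattctgcagg
Col7a1 (chr9:108984584-108984613, plus strand): tgtgctccattTGGTGCTagagttgtgtgt
Col4a5 held 3 matches, Col5a3 had 3, Col5a1 had 4 and Col11a1 had 2. Col7a1 had 2, of which 1 is shown, and Col6a3, Col6a2, Col16a1, Col27a1 and Col8a1 had 1 each. Col1a2, Col6a1, Col18a1, Col12a1, Col23a1, Col11a2, Col28a1, Col20a1, Col9a3, Col8a2 and Col17a1 held none in the counted region. miRNAs were not measured in these libraries, and a match is a description of the sequence only.

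Col4a1 and Col4a2 lie head to head on chromosome 8. Their RefSeq spans overlap by 85 bases and their starts, on opposite strands, are 21 bases apart, so both genes are read from 1 shared promoter region. The stretches shown hold the CCAAT box of each gene and the GC box, spelled GGGCGG, that the windows of both genes share, with the match or its reverse complement in capitals.
Col4a1 (chr8:11312954-11312983, minus strand): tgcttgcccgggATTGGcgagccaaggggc
Col4a2 (chr8:11312761-11312790, plus strand): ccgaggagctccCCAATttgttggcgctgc
Col4a1 (chr8:11312800-11312829, minus strand): cccttggagacgCCGCCCgcgcactgccga
Col4a2 (chr8:11312800-11312829, plus strand): tcggcagtgcgcGGGCGGcgtctccaaggg
The last pair are the same 30 bases read on each strand, and the GC box in them lies past the start of both genes. For comparison, the 250 bases before the start of Col1a2 and of Col3a1, both of which fell with differentiation, are shown. Those of Col1a2 hold a CCAAT box and GC boxes, as the windows of Col4a1 and Col4a2 do, and those of Col3a1 hold neither. Capitals mark a CCAAT box, a GC box or a TATA box, the last spelled TATAAA, on either strand.
Col1a2 (chr6:4505368-4505617, plus strand): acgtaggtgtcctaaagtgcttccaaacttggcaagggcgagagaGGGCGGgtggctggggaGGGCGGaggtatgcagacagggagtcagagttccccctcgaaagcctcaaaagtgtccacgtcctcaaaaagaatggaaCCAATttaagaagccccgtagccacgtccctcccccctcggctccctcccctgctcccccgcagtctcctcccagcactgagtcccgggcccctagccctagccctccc
Col3a1 (chr1:45311288-45311537, plus strand): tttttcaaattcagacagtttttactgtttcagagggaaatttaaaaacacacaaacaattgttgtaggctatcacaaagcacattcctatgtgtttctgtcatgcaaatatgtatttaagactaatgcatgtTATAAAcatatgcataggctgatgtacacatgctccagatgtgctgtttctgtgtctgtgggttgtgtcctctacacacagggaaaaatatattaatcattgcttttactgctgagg
In the windows from 250 bases before to 50 after the start, 23 of the 27 tested collagens had an entry in the RefSeq promoter table of GRCm38.p6, with 25 windows. The CCAAT box was in 10 of them (40%), the GC box in 17 (68%) and the TATA box in 3 (12%), against 37.4%, 35.7% and 13.6% of all 32851 windows, counting both strands. Those 32851 windows include genes that did not pass the filter on low counts, so the sets are not alike. Col4a1 held 1 CCAAT box and 1 GC box, Col4a2 held 1 and 3, and Col1a2 held 2 (1 of them past the start) and 2. Col3a1 held 1 match to TATAAA, 117 bases before the start, and neither of the others. These are matches of letters, and their use as promoter elements was not tested. Col1a1 is not in the table.

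During differentiation in DMSO, more collagens fell than rose. At day 7 against day −2, 14 of the 27 tested collagens were lower and 7 were higher, where 19.1% of all 13329 genes tested were called lower and 19.3% higher. Their median log2 fold change was −1.80, against 0.00 over all genes. At day 3 it was 14 lower and 6 higher, against backgrounds of 18.5% and 17.9%, with a median of −1.13 against 0.06. On day 1, 8 were lower and 4 higher, against 9.36% and 7.61%, with a median of −0.59 against 0.04. From day 1 to day 3, 8 fell and 3 rose (11.6% of genes in each direction), and from day 3 to day 7, 1 fell and 2 rose (4.76% and 6.03%). Without replicate A, and likewise without replicate C, 8 of the 12 calls at day 1 were lost, and none of the 3 calls between days 3 and 7 remained. DESeq2 called 8 collagens between days 3 and 7. All 14 lower collagens would have passed the filter on low counts without the libraries of day −2, and all 7 higher ones without those of day 7.

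**Figure D1:**
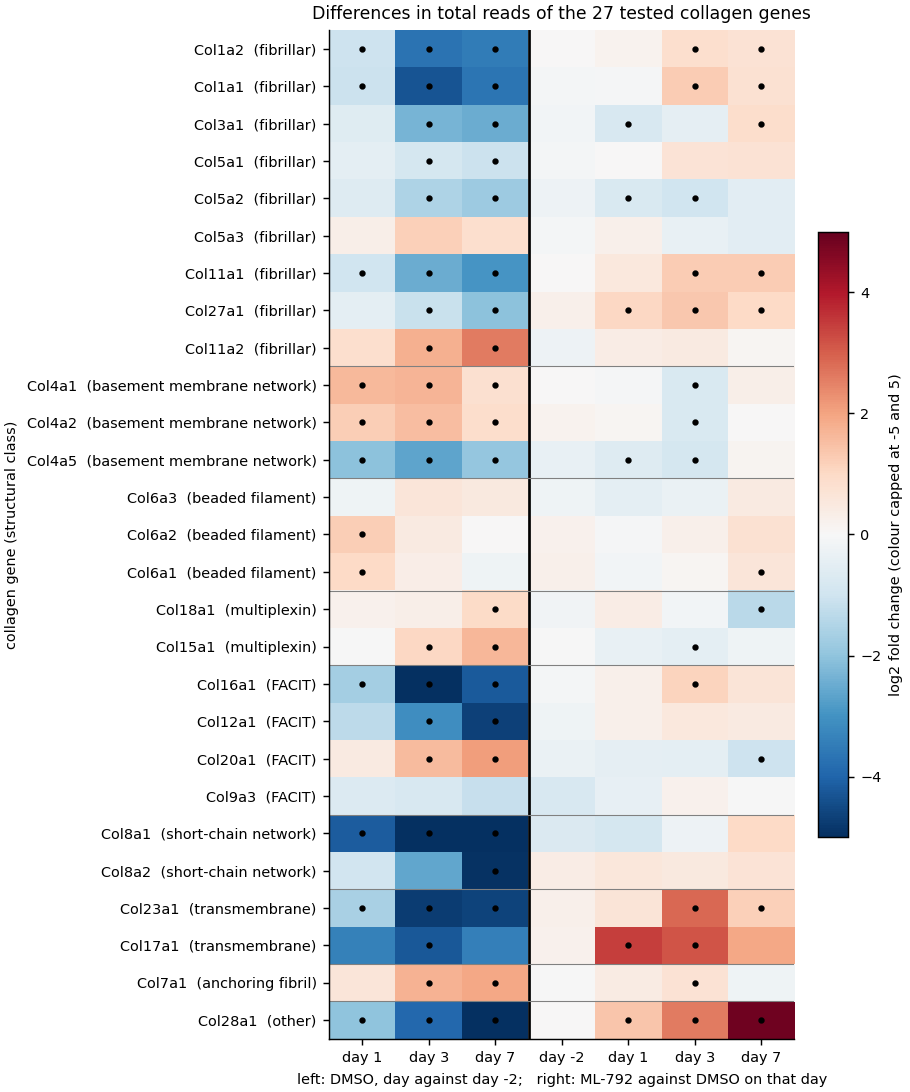
Log2 fold changes in total reads of the 27 tested collagens (rows, ordered by structural class), for each day against day −2 in DMSO (left of the line) and for ML-792 against DMSO on each day (right). Red is higher and blue lower, the colour is capped at 5, and dots mark calls. The left block is mostly blue for fibrillar collagens and red for Col4a1, Col4a2, the multiplexins, Col11a2, Col7a1 and Col20a1.

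Of the 9 fibrillar collagens tested, 7 were lower at day 7 and 1 was higher. Col1a1 and Col1a2 are the chains of type I collagen, the main fibre of connective tissue. In DMSO, Col1a2 had 269226, 202754 and 262939 normalized counts in replicates A, B and C at day −2 and 121438, 118061 and 123261 at day 1. It then had 19614, 15634 and 21721 at day 3 and 26674, 12523 and 25585 at day 7. All libraries of each later day lay below all of day −2, and those of days 3 and 7 overlapped. The fall was 12.9-fold at day 3 (log2 −3.69 ± 0.27, adjusted p = 3.9e-08) and 11.3-fold at day 7 (log2 −3.50 ± 0.27, adjusted p = 4.88e-08). Col1a1 followed the same course, with 137933, 144414 and 162959 normalized counts at day −2, followed by 61190.0, 80428 and 70138 at day 1, 6969.9, 7027 and 8286 by day 3 and 12688, 8425 and 14378 by day 7. Its lowest libraries were those of day 3, where it was 20.0-fold lower than at day −2 (log2 −4.32 ± 0.23, adjusted p = 1.26e-09), against 12.5-fold at day 7 (log2 −3.65 ± 0.22, adjusted p = 3.97e-09). At day 1 both had fallen by about as much, Col1a2 by 2.03-fold (adjusted p = 0.00735) and Col1a1 by 2.10-fold (adjusted p = 0.00121), but the adjusted p rose to 0.149 and 0.0718 without replicate A and to 0.0945 and 0.0361 without replicate C.

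Col3a1, the chain of type III collagen that forms thin fibres with type I, fell less. It had 93846, 89654 and 100296 normalized counts on day −2, with 57617, 70713 and 59999 for day 1, 18164, 15988 and 21953 for day 3 and 19598, 12668 and 18729 for day 7 in DMSO. The day 3 and day 7 libraries lay far below those of day −2, by 5.06-fold (log2 −2.34 ± 0.20, adjusted p = 2.19e-07) and 5.57-fold (log2 −2.48 ± 0.20, adjusted p = 1e-07), while day 1 was not called (log2 −0.59 ± 0.19, adjusted p = 0.0386). Type V collagen sits inside type I fibrils and sets their width. Its chain Col5a2 had 15396, 16005 and 16251 normalized counts at the start (day −2), 9617, 10845 and 10277 (day 1), 5272, 5247 and 5664 (day 3) and 5243, 3169.5 and 5267 (day 7), and was 3.48-fold lower at day 7 (adjusted p = 1.57e-06). Col5a1 went from 12006 ± 3088 to 5699.9 ± 534 (log2 −1.07 ± 0.22, adjusted p = 0.000751), a call that was lost without replicate A (adjusted p = 0.0277) or C (0.0296). The third chain, Col5a3, did not pass the test and its mean was higher at day 7 (log2 0.85 ± 0.40, adjusted p = 0.104).

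The minor fibrillar collagens did not all move with type I. Col11a1, a type XI chain best known from cartilage, had 1507, 1364 and 1351 normalized counts before induction, then 589.8, 745 and 779.6 on day 1, 262, 245 and 242 on day 3 and 206, 180.1 and 166 on day 7. No library of a later day reached the level of day −2, and the fall at day 7 was 7.65-fold (log2 −2.93 ± 0.18, adjusted p = 3.57e-09). Col27a1, a fibrillar chain of developing cartilage, had 928, 575 and 926 normalized counts at day −2, followed by 685, 375 and 649.9 at day 1, 443, 335 and 333 by day 3 and 236, 166 and 191 by day 7, where it was 4.10-fold lower (adjusted p = 1.38e-05). Col11a2, the partner chain of Col11a1 in type XI collagen, went the other way. It had 94.5, 96.9 and 105 normalized counts on day −2, with 220.0, 124 and 192 for day 1, 431, 279.9 and 308 for day 3 and 663, 515 and 634 for day 7. With no overlap between day −2 and any later day, it was 6.10-fold higher at day 7 (log2 2.61 ± 0.25, adjusted p = 5.47e-07), the largest rise of any collagen tested.

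Of type IV collagen, the ubiquitous chains Col4a1 and Col4a2, which assemble together into the basement membrane network, rose, and Col4a5 fell. Col4a1 had 23474, 20593 and 25139.6 normalized counts at the start (day −2), 69813, 72048 and 73482 (day 1), 73473, 71013 and 77966 (day 3) and 40766, 41109.9 and 38808 (day 7). It rose 3.11-fold by day 1 (log2 1.64 ± 0.15, adjusted p = 1.93e-06) and was still 3.21-fold higher at day 3 (adjusted p = 3.9e-07). From day 3 to day 7 it fell 1.84-fold (log2 −0.88 ± 0.15, adjusted p = 0.000855), a call lost without replicate A (0.085) or C (0.0538), and it stayed above day −2 by 1.74-fold (adjusted p = 0.000453; 0.0412 without A and 0.0106 without C). Of its 55 entries, 25 were tested at day 7, with log2 fold changes from −1.66 to 2.46, 2 of them called higher and 1 lower. Its neighbour Col4a2 had 9450.1, 5558 and 10389 normalized counts before induction, then 22894, 14376 and 22885 on day 1, 26329, 21107 and 26999.7 on day 3 and 15526, 16936 and 13853 on day 7. Replicate B was the lowest library at days −2, 1 and 3, yet the groups of days −2 and 1 did not overlap. The rises were 2.37-fold at day 1 (adjusted p = 0.00143), 2.93-fold at day 3 (adjusted p = 9.01e-05) and 1.82-fold at day 7 (adjusted p = 0.0078), and without replicate A the first and the last were no longer called (0.0628 and 0.0698), nor without C (0.0219 and 0.0192). Col4a5, a chain of other basement membranes whose gene lies head to head with Col4a6 on the X chromosome, had 1102, 1246 and 1127 normalized counts at day −2, followed by 269, 300.3 and 273 at day 1, 174, 187 and 201 by day 3 and 355, 166 and 384 by day 7. It fell 6.18-fold by day 3 (log2 −2.63 ± 0.26, adjusted p = 8.12e-07) and was 3.84-fold lower at day 7 (adjusted p = 1.18e-05).

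Type VI collagen was not called at day 7 in any of its 3 tested chains. Col6a1 had 9573, 7433 and 13350.2 normalized counts on day −2, with 19939.5, 15952 and 25433 for day 1, 11259, 10929 and 15632 for day 3 and 8226, 9087 and 8846 for day 7. Col6a2, which lies 85.2 kb from Col6a1 on the same strand of chromosome 10, had 12054, 6350.4 and 15356 at the start (day −2), 29942, 16633 and 32950.2 (day 1), 15828, 11208 and 18603 (day 3) and 11013, 11822 and 11029.7 (day 7). Both peaked at day 1, and replicate B was their lowest library there. The rise at day 1 was 2.02-fold for Col6a1 (adjusted p = 0.00484) and 2.36-fold for Col6a2 (adjusted p = 0.00785), and neither passed without replicate A (0.122 and 0.144) or C (0.0151 and 0.0361). The longest entry of Col6a2 was not called at day 1 either (0.119). At day 7 the differences from day −2 were −0.21 ± 0.23 and 0.00 ± 0.30 on the log2 scale. Col6a3, the long chain of the type VI filament and the precursor of the adipose peptide endotrophin, had 18826, 23876 and 20410.4 normalized counts before induction, then 16332, 23661 and 14924 on day 1, 29322, 39351 and 27409 on day 3 and 33190.2, 22474 and 31748 on day 7. Its highest libraries were at days 3 and 7, but no day was called (day 3, log2 0.61 ± 0.22, adjusted p = 0.0377).

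Both multiplexins rose. These collagens carry heparan or chondroitin sulphate chains at basement membranes, and Col18a1 also yields endostatin. Col15a1 had 397, 494 and 415 normalized counts at day −2, followed by 369, 539 and 379.7 at day 1, 796, 926 and 958 by day 3 and 1239.7, 1494 and 1433 by day 7, and was 3.19-fold higher at day 7 (log2 1.67 ± 0.19, adjusted p = 2.69e-06). Col18a1 had 873, 952 and 1172 normalized counts on day −2, with 1112, 1223 and 1164 for day 1, 1120.3, 1174 and 1330.1 for day 3 and 1907, 2156 and 1802 for day 7. Its rise came between days 3 and 7 (1.62-fold, adjusted p = 0.00774; 0.194, 0.0158 and 0.0405 without A, B and C) and was 1.96-fold over day −2 (adjusted p = 0.000153, 0.0225 without A).

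Collagens of the remaining classes fell as well. Col8a1, a short-chain collagen of vessel walls and of the cornea, went from 868 ± 442 normalized counts before induction to 7.06 ± 4.73 on day 7 (log2 −6.93 ± 0.60, adjusted p = 1.71e-07), with a log2 fold change of −6.15 without replicate B and −7.81 without C. Its partner Col8a2 was near the floor, at 31.2, 29.1 and 18.3 at day −2 and 0, 0 and 2.27 at day 7, at least 7.93-fold lower against 3 counts per library, and its call (adjusted p = 0.00279) was lost without A (0.0256), B (0.0105) or C (0.013). Among the FACIT collagens, which bind fibril surfaces, Col16a1 had 4957, 3741 and 5268 normalized counts at the start (day −2), 1502, 1345 and 1468 (day 1), 147, 122 and 152 (day 3) and 256, 229 and 265 (day 7). It was 33.1-fold lower at day 3 (log2 −5.05 ± 0.20, adjusted p = 1.07e-10) and regained 1.78-fold by day 7 (adjusted p = 0.00424; 0.128 without A and 0.0656 without C). Col12a1 went from 1106 ± 465 to 43.1 ± 14.2 at day 7 (log2 −4.67 ± 0.45, adjusted p = 5.59e-07), and Col9a3 was not called (log2 −1.14 ± 0.64). Col20a1 was the FACIT collagen that rose, from 60.1, 32.6 and 37.4 normalized counts at day −2 and 57.1, 43.2 and 79.1 at day 1 to 155, 92.9 and 139 at day 3 and 179.8, 234 and 147 at day 7 (4.29-fold, adjusted p = 0.000103).

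Col23a1, a collagen of the plasma membrane, had 651, 439 and 713 normalized counts before induction, then 217, 201 and 168 on day 1, 27.6, 14.1 and 25.5 on day 3 and 19.1, 21.9 and 30.7 on day 7. Days 3 and 7 overlapped, and the fall at day 7 was 25.1-fold (log2 −4.65 ± 0.31, adjusted p = 1.02e-08). The other membrane collagen tested, Col17a1 of hemidesmosomes, had 5.61, 22.9 and 21.8 at day −2, followed by 0, 2.70 and 1.68 at day 1, 2.21, 0 and 0 by day 3 and 1.12, 1.04 and 2.27 by day 7. It was at least 4.80-fold lower at day 3 (adjusted p = 0.00765; 0.0109, 0.0611 and 0.109 without A, B and C). Col28a1, a beaded collagen of nerve sheaths, had 171, 138 and 173 normalized counts on day −2, with 49.6, 20.7 and 48.0 for day 1, 13.2, 14.1 and 3.65 for day 3 and 0, 3.12 and 0 for day 7. It had at most 3 counts in each library of day 7 and was at least 48.8-fold lower there (adjusted p = 1.25e-06). Col7a1, the anchoring fibril collagen of skin, rose instead. It had 46.5, 35.2 and 45.3 normalized counts at the start (day −2), 60.9, 57.5 and 76.6 (day 1), 146, 165 and 117 (day 3) and 142, 227 and 122 (day 7), with no overlap between day −2 and any later day (3.85-fold at day 7, adjusted p = 6.79e-05).

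**Figure D2:**
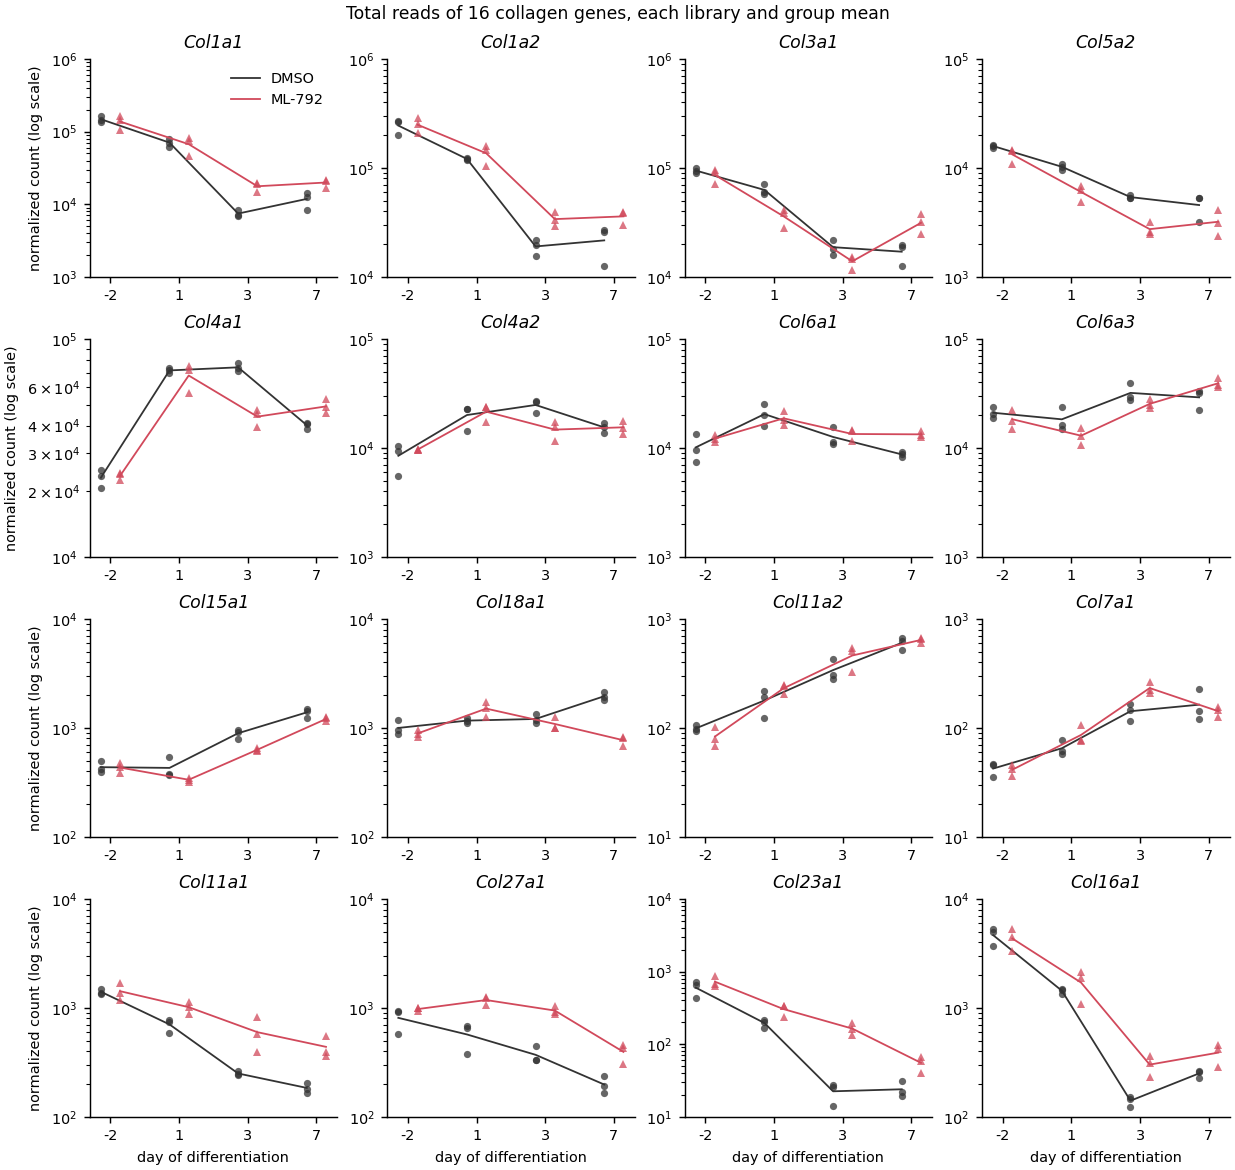
Normalized counts of 16 collagens (log scale) against the day of differentiation, with 1 point for each library and lines through the means of 3 replicates, for DMSO (black circles) and ML-792 (red triangles). Col1a1, Col1a2, Col3a1 and Col16a1 descend steeply to day 3, Col4a1 and Col4a2 peak at days 1 to 3, and Col15a1 and Col11a2 climb to day 7.

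These shifts changed the make-up of the collagen reads. With 1 entry per gene, collagens took 5.04% ± 0.395 of all DMSO reads before induction, then 3.67% ± 0.115 on day 1, 1.75% ± 0.0927 on day 3 and 1.28% ± 0.183 on day 7 (SD, n = 3). Within the collagen reads, Col1a1 and Col1a2 together held 65.1% ± 0.787 at day −2, 43.7% (range 42.8% to 45.4%) at day 1, 11.7% ± 0.830 at day 3 and 18.8% ± 4.33 at day 7. The type IV genes went from 5.39% ± 0.265 to 21.0% ± 1.03, 44.2% ± 0.606 and 32.5% ± 5.27 on the same days. The type VI genes went from 7.01% ± 0.459 to 14.9% ± 1.77, 26.8% ± 2.28 and 28.2% ± 0.478. In every DMSO library of day −2 the type I genes held the largest of these shares, and in every DMSO library of days 3 and 7 the type IV genes held more than type I. Shares of reads follow the amounts of all genes in a library and were not tested.

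**Figure D3:**
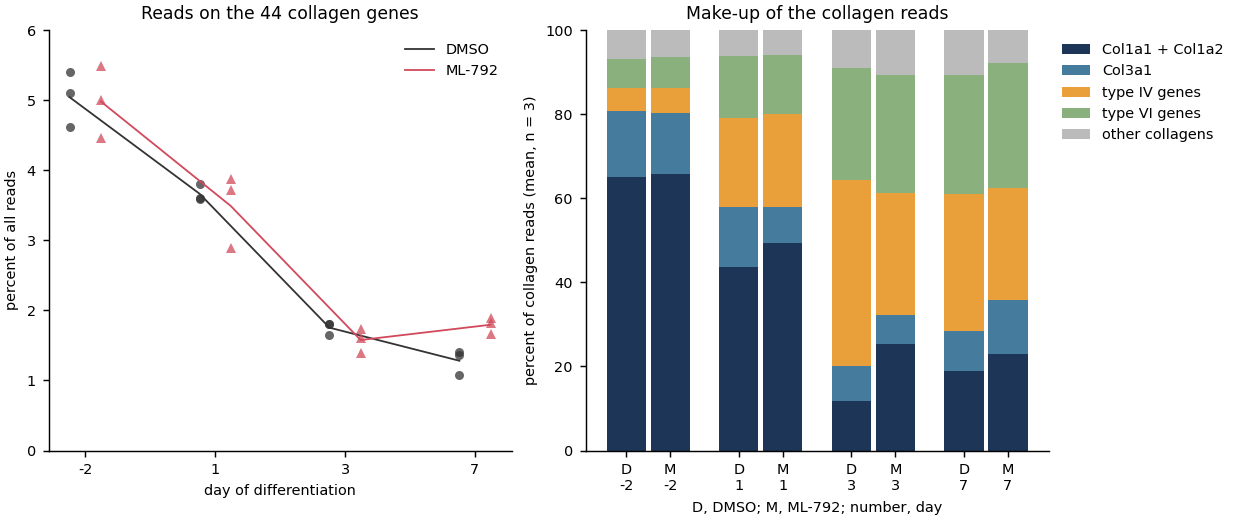
Left, percent of all reads (1 entry per gene) that fell on the 44 collagens in each library, by day, with lines through the means, for DMSO (black circles) and ML-792 (red triangles). Right, mean percent of the collagen reads on type I genes, Col3a1, type IV, type VI and other collagens in each condition (D, DMSO; M, ML-792; n = 3). Type I reads shrink from 65.1% at day −2 to 11.7% at day 3 in DMSO and to 25.4% with ML-792.

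ML-792 was compared with DMSO on each day to ask how collagen RNA differs when sumoylation is blocked. The study's text does not say when ML-792 was added for these libraries, and its viability assay dosed from day −2. The length of exposure behind the comparison of each day, day −2 included, is therefore not known here. Before induction, at day −2, none of the 27 collagens was called by edgeR (0% of all genes; 0 collagens had an unadjusted p under 0.05, and DESeq2 called 0). With ML-792, 3 collagens were higher and 3 lower at day 1 (7.87% of genes called in either direction), 9 higher and 5 lower at day 3 (15.5%), and 8 higher and 2 lower at day 7 (11.7%). In all, 18 of the 27 were called on at least 1 day, against 24.9% of all genes. At day 7 the median over the collagens was 0.61 on the log2 scale, against 0.01 over all genes tested. The effect depended on the day (interaction of day and treatment) for 8 collagens, Col1a1, Col3a1, Col4a1, Col11a1, Col16a1, Col18a1, Col23a1 and Col28a1, against 11.9% of all genes, and for 2 of them without replicate A and 3 without C. Many calls rest on all 3 replicates, since 20 of the 30 single calls were lost when at least 1 replicate was left out, 19 of them without A, 17 without C and 2 without B. The 10 that were kept were Col27a1 at days 1 and 3, Col11a1 at days 3 and 7, Col28a1 at days 3 and 7, Col1a1, Col4a1 and Col23a1 at day 3 and Col18a1 at day 7. No direction changed.

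With ML-792, type I collagen RNA was higher than in DMSO at days 3 and 7. Col1a1 had 162331, 104966 and 146267 normalized counts before induction, then 74649, 46416 and 80461 on day 1, 19339, 14781 and 18898 on day 3 and 21195, 16766 and 21769 on day 7. At days 3 and 7 all 3 libraries lay above all 3 of DMSO. The difference was 2.38-fold at day 3 (log2 1.25 ± 0.22, adjusted p = 0.000286) and 1.68-fold at day 7 (log2 0.75 ± 0.21, adjusted p = 0.0326; 0.327 without A and 0.213 without C). Col1a2 had 284790.0, 210673 and 253491 at day −2, followed by 146297, 103664 and 159347 at day 1, 39104, 29494 and 32986 by day 3 and 38552, 29639 and 39463 by day 7. It was 1.78-fold higher than DMSO at day 3 (adjusted p = 0.0189; 0.319 without A and 0.139 without C) and 1.66-fold at day 7 (adjusted p = 0.0539; 0.269 without A and 0.316 without C). Both type I genes still lay far below their own day −2 values. Over the same comparison, the fibroblast marker sum at day 3 was 2266 to 2636 CPM with ML-792 and 1538 to 1764 in DMSO. Vim made up most of both sums. In mean normalized counts, Vim, S100a4, Pdgfra and Thy1 were higher with ML-792. Dlk1 (2541 against 3662 in DMSO) and Pdgfrb (125 against 136) were lower. The part of these differences in the type I results was not tested.

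Col3a1 did not follow type I. With ML-792 it had 94916, 71703 and 91573 normalized counts on day −2, with 41405, 28116 and 38164 for day 1, 14676, 11585 and 15344 for day 3 and 31582, 24488 and 37797 for day 7. Its libraries lay below all of DMSO at day 1 (log2 −0.81 ± 0.20, adjusted p = 0.0145) and above all of DMSO at day 7 (log2 0.88 ± 0.20, adjusted p = 0.00576), and day 3 was not called (log2 −0.43 ± 0.20). The turn of direction gave an interaction adjusted p of 0.00144 (0.121 without A and 0.137 without C), and both day calls were lost without A (0.169 and 0.126) or C (0.153 and 0.198). Col5a2, whose gene lies tail to tail with Col3a1 at a distance of 24.6 kb, had 14223, 10952 and 14680.0 at the start (day −2), 6312, 4906 and 6809 (day 1), 2563, 2469 and 3183 (day 3) and 3116, 2376 and 4115 (day 7). It was 1.71-fold lower at day 1 (adjusted p = 0.0209; 0.31 without A and 0.12 without C) and 1.97-fold lower at day 3 (adjusted p = 0.00158; 0.131 without A), the 1 fibrillar collagen that fell at day 3. Its ML-792 libraries lay below those of DMSO at day −2 as well, by a difference that was not called (log2 −0.26 ± 0.20). Col5a1 and Col5a3 were called on no day, with log2 values of 0.72 ± 0.26 and −0.51 ± 0.50 at day 7.

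Some minor fibrillar chains were higher with ML-792 on several days. Col27a1 had 1004, 931 and 988 normalized counts before induction, then 1234, 1052 and 1255 on day 1, 1035, 876 and 925 on day 3 and 425, 452 and 305 on day 7 with ML-792. No library of days 1, 3 and 7 was as low as the highest DMSO library of its day. The folds were 2.07 at day 1 (adjusted p = 0.00306), 2.55 at day 3 (log2 1.35 ± 0.22, adjusted p = 0.00013) and 2.00 at day 7 (adjusted p = 0.00552; 0.101 without A). At day −2 its ML-792 libraries also lay above those of DMSO, by a difference that was not called (log2 0.27 ± 0.21). Col11a1 had 1378, 1702 and 1193 at day −2, followed by 1021, 1142 and 882 at day 1, 581, 824 and 389.7 by day 3 and 364, 557 and 395 by day 7. It was 2.39-fold higher at day 3 (log2 1.26 ± 0.22, adjusted p = 0.000255) and 2.38-fold at day 7 (log2 1.25 ± 0.22, adjusted p = 0.000524), with replicate B highest on both days. Its partner Col11a2, which rose in DMSO, was called on no day. With ML-792 it had 545, 329.7 and 513 at day 3 and 656, 605 and 668 at day 7, and the difference at day 7 was 0.09 ± 0.22 on the log2 scale.

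All 3 tested type IV chains were lower with ML-792 at day 3, and none was called at day 7. Col4a1 had 24256, 22449 and 23910.3 normalized counts on day −2, with 72127, 56649 and 75249 for day 1, 47273, 39369.5 and 45435 for day 3 and 52860.4, 45512 and 48790.2 for day 7. At day 3 its 3 libraries lay below all of DMSO by 1.68-fold (log2 −0.75 ± 0.14, adjusted p = 0.000412), and at day 7 they lay above them by a difference that was not called (log2 0.29 ± 0.13, adjusted p = 0.256). Col4a2 had 9759, 9576 and 9595 at the start (day −2), 23643, 17292 and 23669.6 (day 1), 17207, 11504 and 15479.6 (day 3) and 17704, 13316 and 15383 (day 7), and was 1.68-fold lower at day 3 (adjusted p = 0.0267; 0.218 without A and 0.272 without C). Col4a1 and Col4a2 differed from DMSO by −0.75 ± 0.14 and −0.75 ± 0.22 on the log2 scale at day 3. The part of their shared promoter region in this was not tested, and Col4a5, on another chromosome, was lower that day too. Col4a5 had 849, 862 and 1004 before induction, then 162, 175 and 198 on day 1, 87.0, 109 and 110.4 on day 3 and 334, 311 and 342 on day 7. It was 1.57-fold lower at day 1 (adjusted p = 0.0817) and 1.83-fold at day 3 (adjusted p = 0.0093), calls that were lost without A (0.583 and 0.228) or C (0.296 and 0.134). At day −2 it was also below DMSO in all libraries, a difference that was not called (log2 −0.36 ± 0.20).

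Col18a1 was lower with ML-792 at day 7, with the smallest adjusted p of the collagens called that day. It had 879, 825 and 962 normalized counts at day −2, followed by 1521, 1255 and 1736 at day 1, 1261, 994 and 1005 by day 3 and 807, 678 and 825 by day 7. At day 7 all of these libraries lay below all of DMSO, by 2.54-fold (log2 −1.34 ± 0.16, adjusted p = 2.5e-06). The other multiplexin, Col15a1, had 386, 472 and 439 on day −2, with 318, 348 and 335 for day 1, 611, 648 and 632 for day 3 and 1246, 1153 and 1223 for day 7. It was 1.42-fold lower at day 3 (adjusted p = 0.0335; 0.199 without A, 0.381 without C, 0.25 with no filter on low counts and 0.136 in a fit of that day alone) and was not called at day 7 (log2 −0.20 ± 0.15). Type VI chains had 14230.3, 11518 and 14515 (Col6a1), 20046, 13269 and 20741 (Col6a2) and 28147, 24649 and 23381 (Col6a3) normalized counts at day 3 with ML-792, all overlapping DMSO. At day 7 Col6a1 had 13106, 12629.5 and 14239.5, Col6a2 had 19584, 14766 and 22718 and Col6a3 had 43694, 37943 and 36287, all above every DMSO library of their gene. Only Col6a1 passed (1.53-fold, adjusted p = 0.0648; 0.473 without A and 0.235 without C), while Col6a2 (log2 0.75 ± 0.29, adjusted p = 0.139) and Col6a3 (log2 0.43 ± 0.20, adjusted p = 0.26) did not. At days −2 and 1, the ML-792 libraries of the 3 genes overlapped those of DMSO, where Col6a1 had 11359, 13078 and 12128 (day −2) and 18119.6, 16307 and 21683 (day 1). Col6a2 had 13704, 11283 and 13913 (day −2) and 27559.8, 17761 and 31846 (day 1), and Col6a3 had 22433, 14812 and 17752 (day −2) and 15257, 10677 and 12916 (day 1).

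Large differences were also found in collagens that had fallen steeply in DMSO. Col23a1 had 870.4, 669 and 637 normalized counts at the start (day −2), 334, 237 and 340.4 (day 1), 196, 132 and 164 (day 3) and 58.9, 40.6 and 66.5 (day 7) with ML-792. It was 7.27-fold higher than DMSO at day 3 (log2 2.86 ± 0.29, adjusted p = 1.55e-07) and 2.31-fold at day 7 (adjusted p = 0.011; 0.276 without A, 0.146 without C and 0.116 in a fit of that day alone). Col28a1 had 151, 129.8 and 215 before induction, then 99.9, 103 and 104 on day 1, 47.9, 63.4 and 81.9 on day 3 and 44.2, 24.1 and 38.0 on day 7. It was 2.59-fold higher at day 1 (adjusted p = 0.0462; 0.322 without A and 0.19 without C), 6.12-fold at day 3 (log2 2.61 ± 0.47, adjusted p = 0.000389; log2 2.01 without C) and at least 10.7-fold at day 7, where DMSO was at the floor (adjusted p = 2.91e-05). Col16a1 had 5253, 3297 and 4453 at day −2, followed by 2137, 1088 and 1900.0 at day 1, 362, 231 and 310.2 by day 3 and 419, 289 and 456 by day 7. It was called at day 3 (2.15-fold, adjusted p = 0.0028; 0.142 without A) and not at day 7 (log2 0.63 ± 0.23, adjusted p = 0.113).

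Col7a1 had 36.2, 41.9 and 45.8 normalized counts on day −2, with 107, 75.2 and 76.9 for day 1, 263, 209 and 225 for day 3 and 155, 147 and 125 for day 7 with ML-792. Its 1.63-fold difference at day 3 (adjusted p = 0.0686) did not pass without A (0.473) or C (0.412), with at least 10 reads as the filter (0.126), with no filter (0.295) or in a fit of that day alone (0.138). Col20a1, which rose in DMSO, had 35.4, 35.0 and 32.5 at the start (day −2), 47.2, 41.8 and 44.1 (day 1), 101, 96.4 and 81.9 (day 3) and 123, 59.6 and 93.7 (day 7). It was 2.03-fold lower than DMSO at day 7 (adjusted p = 0.0378), a call lost without A (0.143), B (0.281) or C (0.213). Col17a1 had 14.7, 30.2 and 13.9 before induction, then 20.9, 16.7 and 15.0 on day 1, 1.09, 5.07 and 17.4 on day 3 and 4.91, 5.08 and 8.15 on day 7. It was at least 6.55-fold higher at day 1 (adjusted p = 0.0264; 0.249 without A and 0.195 without C) and at least 2.24-fold at day 3, where the groups overlapped (adjusted p = 0.0788; 0.216 without B and 0.797 without C). Col8a1, Col8a2, Col9a3 and Col12a1 were called on no day.

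With ML-792, collagens took 4.98% ± 0.517 of all reads before induction, then 3.49% ± 0.522 on day 1, 1.58% ± 0.169 on day 3 and 1.80% ± 0.119 on day 7. At day 7 every ML-792 library lay above every DMSO library in this share, and at the other days the groups overlapped. Type I genes held 25.4% ± 0.663 of the collagen reads at day 3 with ML-792 and type IV genes 29.1% ± 0.426, against 11.7% and 44.2% in DMSO. At day 7 the shares were 22.9% ± 0.860 for type I, 12.8% ± 1.64 for Col3a1, 26.8% ± 1.56 for type IV and 29.6% ± 1.34 for type VI, against 18.8%, 9.66% ± 1.11, 32.5% and 28.2% in DMSO.

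Labelled reads hold RNA made during the pulse, together with a background of conversions that was not measured. In all, 3.17% ± 0.485 of the reads were labelled at day −2 in DMSO, 1.27% ± 0.0798 at day 1, 1.03% ± 0.115 at day 3 and 1.03% ± 0.0869 at day 7, so most genes moved down in labelled reads scaled by total reads. Of 18 collagens tested, 6 were lower and none higher at day 1 (17.9% and 0.591% of 6434 genes), 9 and none at day 3 (30.6% and 2.04%), and 8 and none at day 7 (27.4% and 2%). The collagens' medians were −1.44, −2.45 and −2.12 on the log2 scale, against −1.16, −1.58 and −1.45 over all genes. Scaled instead by the labelled reads themselves, which moves the median of all genes at day 7 from −1.45 to −0.32, 1 was lower and 3 higher at day 1 (3.76% and 2% of genes), 3 and 2 at day 3 (7.3% and 5.46%), and 5 and 0 at day 7 (7.18% and 5.11%). Without replicate A, 4 of the 6 calls at day 1, 4 of the 9 at day 3 and 3 of the 8 at day 7 were lost, and without replicate C 3, 4 and 1 were.

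Of 8 fibrillar genes tested in labelled reads, 6 were lower at day 7, and Col5a3 and Col11a1 were not called. Col1a2 had 5841, 3691 and 5455 normalized labelled counts at day −2, followed by 1339.7, 1262 and 1496 at day 1, 272, 151 and 287 by day 3 and 379, 180.1 and 333 by day 7 in DMSO (day 7, log2 −4.07 ± 0.31, adjusted p = 1.07e-15). Col1a1 had 1808, 1261 and 1924 on day −2, with 291, 318 and 291 for day 1, 38.6, 36.5 and 69.3 for day 3 and 117, 40.6 and 99.0 for day 7 (log2 −4.28 ± 0.36, adjusted p = 2.78e-14). Col5a1 and Col5a2 were also lower at day 7 (log2 −2.09 ± 0.43 and −2.75 ± 0.45). The other calls at day 7 were Col3a1 (log2 −2.45 ± 0.31), Col16a1 (−3.98 ± 0.84; adjusted p = 0.000164, 0.031 without A; log2 −5.04 without B), Col27a1 (at least 8.45-fold, adjusted p = 0.000129, 0.0164 without A) and Col8a1, which had no labelled read at day 7 and was at least 4.06-fold lower (adjusted p = 0.00161; 0.023, 0.0193 and 0.0111 without A, B and C). Scaled by the labelled reads themselves, 3 of the 8 were no longer called, Col5a1 (adjusted p = 0.088), Col16a1 (0.0198) and Col8a1 (0.0161). The labelled fall of Col3a1 was about that of its total reads (log2 −2.48). The share of its reads that were labelled changed by a factor of only 0.989.

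Scaled by total reads, Col4a1 and Col4a2 were not called in labelled reads, and scaled by the labelled reads both were higher at days 1 and 3 but not at day 7. Col4a1 had 371, 177 and 257 normalized labelled counts at the start (day −2), 314, 359 and 429 (day 1), 276, 241 and 322 (day 3) and 189.9, 211 and 179.7 (day 7), with overlap between day −2 and every later day. Its log2 differences from day −2 were 0.45 ± 0.32, 0.06 ± 0.32 and −0.47 ± 0.32, with adjusted p of 0.265, 0.88 and 0.216. Col4a2 gave 0.48 ± 0.38, 0.43 ± 0.38 and −0.19 ± 0.38. Scaled by the labelled reads themselves, Col4a1 gave 1.49 at day 1 (adjusted p = 0.00015) and Col4a2 1.51 (adjusted p = 0.00154). On day 3 this scale gave 1.29 for Col4a1 (adjusted p = 0.000523) and 1.67 for Col4a2 (adjusted p = 0.000222). At day 7 neither scale gave a call, with 0.70 for Col4a1 and 0.97 for Col4a2 on the second, where the signs were turned.

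For ML-792 against DMSO, edgeR called no collagen in labelled reads at day −2, 1, 3 or 7 (0%, 0.979%, 1.15% and 0.948% of all genes), and DESeq2 called none either. In fits of a single day, Col3a1 was called at day 7 (adjusted p = 0.021), and without replicate B 3 were called. With the replicate letter as a block, edgeR called Col3a1 at days 1 and 7 and Col1a1 and Col1a2 at day 3. The mean percent of Col3a1 reads that were labelled was 10.5 in DMSO and 11.1 with ML-792 at day 1. At day 7 it was 10.4 and 10.5. At an unadjusted p under 0.05, 0, 2, 4 and 1 collagens passed, and in the interaction of day and treatment 0 were called (0.28% of genes) and 1 passed at the unadjusted p. Col1a1 at day 3 was nearest among the type I genes, with 38.6, 36.5 and 69.3 normalized labelled counts in DMSO and 106, 69.7 and 103 with ML-792. These groups did not overlap (log2 0.95 ± 0.32, adjusted p = 0.207). Col1a2 gave 0.80 ± 0.31 (adjusted p = 0.318), and without replicate B both passed (0.0841 and 0.0841). A p above the threshold at this depth does not show that their transcription was alike.

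Col3a1 stood apart in its labelled share, the percent of a gene's reads that carried T to C conversions. In DMSO it was 12.6, 7.47 and 11.3 percent in replicates A, B and C at day −2, 13.4, 7.64 and 10.6 at day 1, 12.8, 6.43 and 10.5 at day 3 and 12.2, 7.68 and 11.2 at day 7. With ML-792 it was 13.0, 8.34 and 11.8 before induction, then 14.01, 7.74 and 11.6 on day 1, 13.3, 6.12 and 11.3 on day 3 and 12.3, 6.80 and 12.2 on day 7. Replicate A was the highest and replicate B the lowest in all 8 conditions, so that the share differed more between replicate letters than between days or treatments. The mean over the 8 conditions ranged by 1.12-fold, against a median of 5.40-fold over 6028 genes. Those genes were not matched to Col3a1 in depth, and shares from few labelled reads vary more. Col1a2, with more total reads than Col3a1, ranged from 0.996% to 2.02%. From day −2 to day 7 in DMSO, the share of Col3a1 changed by a factor of 0.989 (percentile 93.5), against a median of 0.385 over 6417 genes. The factors of Col16a1 (1.16), Col11a1 (1.66) and Col12a1 (5.72), all with far fewer reads than Col3a1, were higher. At day 7 in DMSO 128 of 6434 genes, Col3a1 included, had a labelled share at least as high.

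The other collagens named here had lower shares than Col3a1. The median gene was at 2.96%, 1.21%, 0.942% and 1.04% at days −2, 1, 3 and 7 in DMSO. Col1a2 had 2.02 ± 0.18, 1.13 ± 0.0756, 1.22 ± 0.229 and 1.39 ± 0.0735 percent, and Col1a1 had 1.12 ± 0.225, 0.429 ± 0.0418, 0.636 ± 0.174 and 0.697 ± 0.22. Col4a1 had 1.15 ± 0.378 percent at day −2 and 0.481 ± 0.0286 at day 7, and Col5a2 had 0.95 ± 0.261 and 0.468 ± 0.147. T made up 33.4% of the 959 bases counted for Col3a1 and 33.5% of the 1753 bases of Col5a2. Col3a1 alone held 2.57% ± 0.426 of all labelled reads at day −2 in DMSO and 4.26% ± 0.803 at day 1. All collagens together held 4.63% ± 0.599 of the labelled reads at day −2, or 2.06% ± 0.174 without Col3a1, and 2.07% ± 0.599 at day 7, or 0.769% ± 0.117 without it. With ML-792 at day 7 the values were 4.19% ± 1.19 and 1.20% ± 0.0773. Why the share of Col3a1 was high and steady was not tested.

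**Figure D4:**
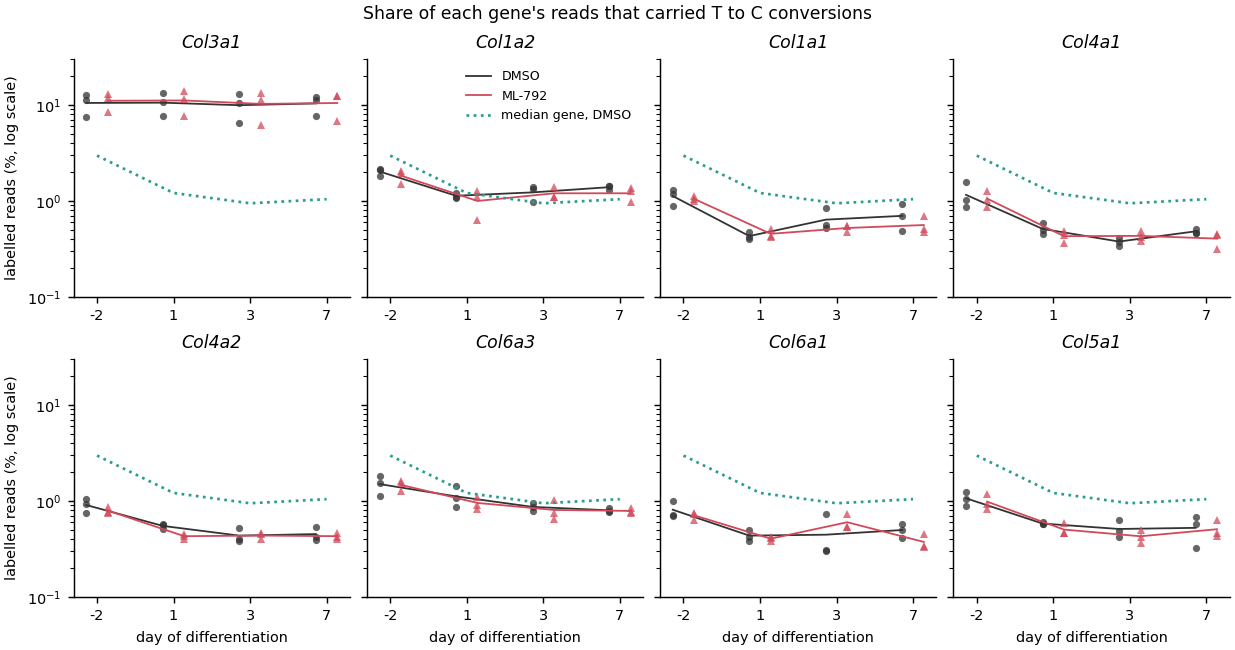
Percent of the reads of 8 collagens that carried T to C conversions (log scale) against the day, with 1 point for each library and lines through the means of 3 replicates, for DMSO (black circles) and ML-792 (red triangles). The dotted line is the median over all tested genes in DMSO. Col3a1 stays above 6.11% in every library, while the other panels and the median gene fall after day −2.

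Collagen chains need a set of enzymes and carriers before and after secretion, and 49 of 54 listed genes for them were tested in total reads. In DMSO, 7 were higher and 13 lower at day 1 (7.61% and 9.36% of all genes), 1 and 33 at day 3 (17.9% and 18.5%), and 2 and 30 at day 7 (19.3% and 19.1%), with a median log2 fold change of −1.76 at day 7, close to the −1.80 of the collagens themselves. All 4 called genes of collagen cross-linking fell, among them Lox, the lysyl oxidase, from a mean of 18205 normalized counts before induction to 564 at day 3 (log2 −5.01 ± 0.19, adjusted p = 8.05e-11) and 3176 at day 7 (log2 −2.52 ± 0.17). So did Serpinh1, the collagen chaperone HSP47 (log2 −1.76 ± 0.19 at day 7), 5 of 6 genes of propeptide cleavage, 11 of 13 genes of degradation and uptake and 3 of 6 collagen receptors. The list of degradation and uptake also holds the protease inhibitors Timp1, Timp2 and Timp3. Among its falls was that of the inhibitor Timp3 (log2 −8.04 ± 0.26). Of 13 genes for prolyl and lysyl modification, 3 fell and 2 rose at day 7, the rises being P4ha2 (log2 1.01 ± 0.18) and Plod1 (1.20 ± 0.17). In labelled reads, 21 of 32 genes tested were lower at day 7 and none higher, against 27.4% and 2% of all genes.

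With ML-792, no gene of this list was called at day −2, 3 were higher and 4 lower at day 1, 9 and 2 at day 3, and 8 and 8 at day 7, against 7.87%, 15.5% and 11.7% of all genes in either direction on the last 3 of these days. Lox, which cross-links type I fibres, was higher at day 3 (log2 1.83 ± 0.15, adjusted p = 5.86e-09), as were Sparc, a collagen-binding matricellular protein (1.16 ± 0.16), and the procollagen C-proteinase enhancers Pcolce (1.60 ± 0.45) and Pcolce2 (3.19 ± 0.42), on the day when Col1a1 and Col1a2 were higher. Pcolce2 had few reads, with a mean of 6.56 normalized counts in DMSO and 61.1 with ML-792. The 2 lower genes at day 3 were 1 of prolyl and lysyl modification and 1 receptor. P4ha2, a prolyl hydroxylase subunit, was lower at day 7 (log2 −1.66 ± 0.19, adjusted p = 3.18e-06). Its mean at day 3 was 219 normalized counts with ML-792 against 440 in DMSO. In labelled reads 1 gene of the list was lower at day 1 (Timp3; 0.979% of all genes) and 1 was higher at day 3 (Sparc; 1.15%).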

How the data were processed

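Total RNA of 3T3-L1 cultures was read by QuantSeq after 4-thiouridine labelling and alkylation (SLAM-seq). The authors mapped reads to mm10 and counted them in RefSeq 3′UTR entries with SlamDunk, and they deposited 1 table of total read counts and 1 of labelled read counts (at least 1 T to C conversion). In each of the tables, 6 library columns match no sample described here and were not used. The submitters' processing notes name bcl2fastq 2.17.1.14. The study's methods describe 3 biological replicates.

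From the deposited counts, all entries were tested with edgeR 4.0.16 (limma 3.58.1) in R 4.3.3, using filterByExpr (minimum count 10, total 15), TMM and quasi-likelihood tests. The DMSO time course was fitted on the 12 DMSO libraries, ML-792 on all 24, at adjusted p under 0.01 and 0.1, the limits used in the study. Labelled counts were scaled by the total reads. Folds against a group with 3 counts or fewer in each library are bounds at that floor. Percentages of all genes called use the top entry of each symbol. DESeq2 1.42.0, other filters, 1 entry per gene, the longest entry, other scalings, single-day fits, a replicate block and leaving out each replicate were tried. The procedure was tested on simulated data. Sequences were read from RefSeq and GRCm38.p6 with Python 3.11.15.

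Values in every library are given for the 8 most abundant collagens, those called for ML-792 on any day and those higher at day 7 in DMSO, and values for the largest rise and fall of each class. The members, gene lists and this rule were chosen with earlier results of these data known.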

Additional observations from a re-analysis of the deposited data

Results flagged for a closer look

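The effect of ML-792 in total reads differed between the days for 8 collagens, by the interaction of day and treatment in edgeR's quasi-likelihood test with Benjamini-Hochberg adjustment. The adjusted p was 6.18e-05 for Col18a1, which was lower with ML-792 at day 7 alone, and 0.000219 for Col23a1, which was higher at days 3 and 7. It was 0.00094 for Col28a1, higher at days 1, 3 and 7 (0.197 without replicate A). Col3a1 had 0.00144 and was lower at day 1 and higher at day 7 (0.121 without A and 0.137 without C). Col4a1 had 0.00424 and was lower at day 3 (0.344 and 0.279). The type I gene Col1a1 had 0.00784 and was higher at days 3 and 7 (0.292 and 0.17). The same held for Col11a1, with 0.0154 (0.347 and 0.161), and Col16a1, with 0.0849, was called at day 3 alone (0.616 and 0.644). The causes were not tested.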

How the results depend on the processing

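The 14 collagens lower at day 7 in total reads were 12 to 15 under every alternative run, and no named direction reversed. The 7 higher ones were 4 to 9 when a replicate was left out, with 4 without A. The 18 collagens called for ML-792 on at least 1 day were 8 to 22 when a replicate was left out, with 8 without A, 22 without B and 9 without C. The 8 interactions were 2 to 16 on leaving out a replicate and 14 with no filter on low counts. DESeq2 called 12 interactions, and 8 collagens between days 3 and 7 where edgeR called 3. In labelled reads, the 8 lower at day 7 were 5 when scaled by labelled reads and 5 to 8 on leaving out a replicate. None was called there for ML-792, against 1 in fits of single days and 0 to 3 on leaving out a replicate, and no interaction, against 0 to 1. The causes were not tested.

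Libraries of the same replicate letter were more alike on average, but whether the letters pair the samples was not settled. Same-letter residuals correlated by 0.191 on average in total reads, against −0.0941 between different letters. Of the 84 same-letter pairs 68 were above 0.1, and the lowest was −0.180. In labelled reads the averages were 0.0712 and −0.0355, and 23 of the 84 same-letter pairs were above 0.1. The main fits held no block, and the block was run as an alternative. With the replicate letter as a block, 24 collagens were called for ML-792 in total reads, with all 18 kept, 18 for the interaction, 3 for ML-792 in labelled reads (Col1a1, Col1a2 and Col3a1) and 1 for the labelled interaction, while 14 were lower and 8 higher at day 7. The block raised the calls at day 1 from 6 to 11 and at day 7 from 10 to 16. Labelled counts of many collagens were near the floor of 3 counts, which limits what can be called in them. Standard errors of the fits cover the spread between 3 cultures of 1 cell line.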
